A study of Mus musculus with 12 samples.

Results

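Receptors for interferons and for IL-10 are built from pairs of class II cytokine receptor chains, and their mRNAs were followed here across long-term hematopoietic stem cells (LT-HSCs) that differ in surface c-KIT and in BCR-ABL. The members were chosen by gene, as the 6 chains *Ifnar1*, *Ifnar2*, *Ifngr1*, *Ifngr2*, *Il10ra* and *Il10rb*, out of 48795 genes in the count table. All 6 were found by Ensembl identifier, and all 6 were among the 14676 genes that passed the filter on low counts and were tested. RNA-Seq counts came from 12 libraries, 3 each of normal c-KIThi, normal c-KITlo, CML c-KIThi and CML c-KITlo LT-HSCs of mouse BM. LT-HSCs were gated by the study as donor Lin– cells positive for Sca-1, c-KIT and CD150 and negative for Flt3 and CD48, and the c-KIThi and c-KITlo gates were set on control mice and then applied to CML mice. CML cells carried the Scl-tTA BCR-ABL transgenes, in which the Scl (Tal1) enhancer drives tTA in stem and progenitor cells and tTA switches on BCR-ABL once doxycycline is withdrawn. In the study's transplant design, donor cells went into irradiated wild-type recipients, and control mice stayed on doxycycline, so that BCR-ABL was off. The sample labels instead call the normal mice B6, and whether the sequenced normal cells carried the transgenes cannot be told from these sources. They mention 4 biological replicates per group and give 3 libraries, without saying which mice each library came from, so p-values measure the spread between these libraries.

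Each of these receptors pairs a ligand-binding chain with a partner, and each chain brings a Janus kinase that phosphorylates STAT proteins. IFNAR1 (with TYK2) and IFNAR2 (with JAK1) form the receptor for type I interferons, which signals mainly through STAT proteins joined by IRF9. IFNGR1 (with JAK1) binds interferon-γ and IFNGR2 (with JAK2) completes that receptor, which also signals through STAT proteins. IL10RA (with JAK1) binds IL-10 and acts mainly through STAT3, while IL10RB (with TYK2) is shared with the receptors for IL-22 and type III interferons. In bone marrow, interferons are known to drive dormant HSCs into cycle, and IL-10 is known for restraining inflammatory gene expression in myeloid cells.

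Libraries held 7753878 to 31020852 counts on genes. Gene assignment differed between the sorted fractions, as 24.4% to 37.1% of all tallied reads were assigned to a gene in c-KIThi and 43.9% to 60.6% in c-KITlo libraries, while the share of assigned reads on genes under 1 kb was 7.04% to 13.8% in c-KIThi and 1.4% to 5.46% in c-KITlo libraries. Normal c-KITlo library 1 was the deepest, yet only 9760 genes reached 10 counts in it, against 10823 to 13849 in the other 11 libraries, and the main values of the chains that rest on it are also given without it. All 12 markers on a list for LT-HSCs were detected in every group, and their sum in CPM (counts scaled by TMM to a common library size) was 969 to 1187 in normal c-KIThi, 1878 to 2587 in normal c-KITlo, 852 to 1513 in CML c-KIThi and 1891 to 2145 in CML c-KITlo libraries. *Slamf1*, which encodes CD150, was at only 0.0332 CPM in normal c-KITlo library 1, where the group median was 60.5 CPM. The mean was higher in c-KITlo for 10 of the 12 markers in normal and 8 in CML. In normal 3 markers were higher and 0 lower without overlap between groups, where 11% and 12.6% of all tested genes were. In CML 6 were higher and 1 (*Hoxb5*) lower without overlap, where 27.6% and 23.6% of all tested genes were. *Flt3* and *Cd48*, whose proteins were gated out, were detected in every group too, with *Flt3* at 13.6 to 26 CPM in CML c-KIThi and 30.1 to 52.7 CPM in CML c-KITlo libraries. *Kit* mRNA did not follow the surface label. The mean was 135 ± 7.32 CPM (SD, n = 3) in normal c-KIThi, 363 ± 321 in normal c-KITlo, 127 ± 82.6 in CML c-KIThi and 510 ± 49.3 in CML c-KITlo libraries. The sort was on surface protein, and the groups are called here by their labels. Bulk mRNA cannot tell fewer cells that express a gene apart from less of its RNA per cell.

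Of the 6 chains, 4 lie together on mouse chromosome 16 (GRCm38) in the order *Ifnar2*, *Il10rb*, *Ifnar1* and *Ifngr2*, all on the plus strand, between 91372783 and 91565623. *Ifngr1* lies on chromosome 10 (19591949 to 19610229, plus strand) and *Il10ra* on chromosome 9 (45253837 to 45269149, minus strand). Values are counts over all annotated exons of a gene, 5′ and 3′ UTRs included. The predicted gene *Gm21970*, which has 0 counts in all libraries, shares 14.9% of the exonic bases of *Il10rb* and 9.46% of those of *Ifnar2*, and reads that touch more than 1 gene are set aside by HTSeq, so these chains may be counted somewhat low in every library. Promoter windows from RefSeq (GRCm38.p6, 250 bases before to 50 after the annotated start) were matched for 4 of the 6 chains. They are shown for both type I interferon receptor chains, whose log2 fold changes between the CML fractions had opposite signs, and for *Ifngr1*, the chain with the most counts. Capitals mark the letters TTCNNNGAA (GAS, the element bound by STAT dimers) and GGGCGG on either strand (a GC box), and GC boxes were searched only after the sequences had been seen. The windows are chr16:91484965-91485264 (plus strand) for *Ifnar1*, chr16:91372533-91372832 (plus strand) for *Ifnar2* and chr10:19591699-19591998 (plus strand) for *Ifngr1*.
Ifnar1: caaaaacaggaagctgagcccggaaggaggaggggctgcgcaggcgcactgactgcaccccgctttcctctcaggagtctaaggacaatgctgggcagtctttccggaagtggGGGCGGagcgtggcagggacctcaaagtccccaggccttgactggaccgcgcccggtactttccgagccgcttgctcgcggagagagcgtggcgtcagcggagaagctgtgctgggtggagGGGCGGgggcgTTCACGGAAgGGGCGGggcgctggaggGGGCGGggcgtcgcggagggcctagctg
Ifnar2: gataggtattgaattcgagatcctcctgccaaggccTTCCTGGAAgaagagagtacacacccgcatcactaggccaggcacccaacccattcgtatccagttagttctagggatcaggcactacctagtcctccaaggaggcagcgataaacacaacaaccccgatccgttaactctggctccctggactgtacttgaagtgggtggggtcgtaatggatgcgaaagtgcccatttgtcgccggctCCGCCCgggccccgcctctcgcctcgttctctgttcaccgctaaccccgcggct
Ifngr1: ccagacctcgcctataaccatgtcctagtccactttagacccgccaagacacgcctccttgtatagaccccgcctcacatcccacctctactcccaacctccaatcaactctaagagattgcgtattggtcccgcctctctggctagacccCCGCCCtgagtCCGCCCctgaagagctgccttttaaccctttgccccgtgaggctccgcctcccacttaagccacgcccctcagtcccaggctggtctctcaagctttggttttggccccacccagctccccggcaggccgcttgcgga

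The *Ifnar1* window held 4 GC boxes and 1 GAS match, which begins 5 bases before the annotated start. The *Ifnar2* window held 1 GC box and 1 GAS match, beginning 214 bases before the start. The *Ifngr1* window held 2 GC boxes and no GAS match, and the *Ifngr2* window (chr16:91546809-91547108, plus strand) 4 GC boxes and no GAS match. None of the 4 windows held the ISRE letters (GAAA, any 2 bases, GAAA) on either strand, the core of the interferon-stimulated response element. Among 32851 promoter windows of the same length, 8.3% held the GAS letters, 3.44% the ISRE letters and 35.7% a GC box. GC content was 68.3% in the *Ifnar1*, 57% in the *Ifnar2*, 60.3% in the *Ifngr1* and 74.3% in the *Ifngr2* window, against a median of 52.7% over all windows. These are matches of letters and not sites of binding.

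All 6 mRNAs were detected in both stem cell fractions and both disease states, with the exception of *Il10ra* in 2 normal c-KIThi libraries. Levels of different genes were compared as TMM-scaled CPM per kilobase of exonic length. *Ifngr1* had the highest mean level in each of the 4 groups, from 21.8 CPM per kilobase in normal c-KIThi to 79.0 in normal c-KITlo LT-HSCs, and *Ifnar2* came next in each group, from 21.1 in normal c-KIThi to 31.9 in CML c-KIThi. In c-KITlo LT-HSCs the libraries of *Ifngr1* lay above those of *Ifnar2* in both disease states, while in c-KIThi LT-HSCs their ranges overlapped. The other 4 chains had group means at or below 12.9 CPM per kilobase. *Il10ra* was lowest in normal c-KIThi (0.0729 ± 0.126, SD, n = 3), normal c-KITlo (5.39 ± 5.70) and CML c-KIThi LT-HSCs (1.22 ± 0.19), and its range overlapped that of the next chain only in normal c-KITlo LT-HSCs. In CML c-KITlo LT-HSCs *Il10ra* stood at 9.16 ± 2.68 CPM per kilobase, next to *Il10rb* at 8.47 ± 0.38 with overlapping ranges, and *Ifngr2* was lowest at 7.05 ± 1.02.

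**Figure D1:**
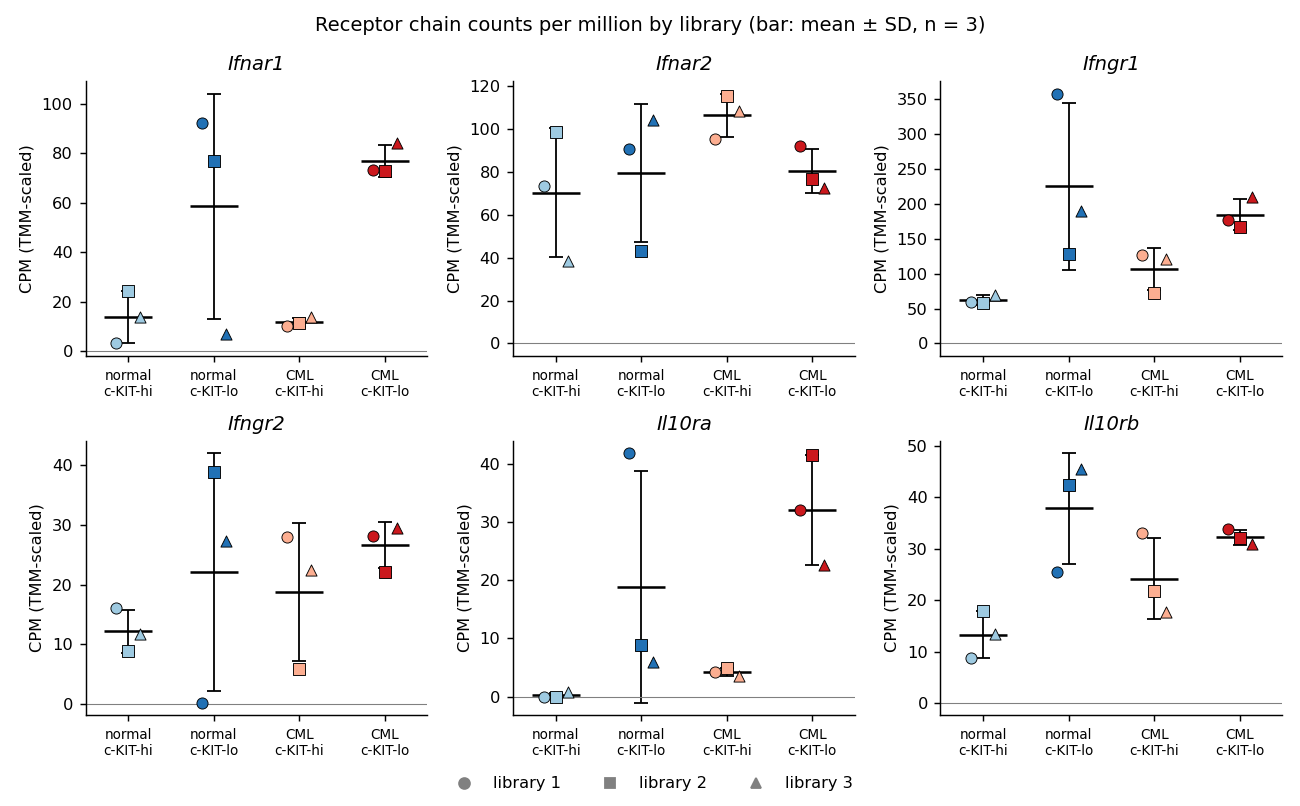
CPM (counts scaled by TMM to a common library size, linear axis from 0) of each receptor chain mRNA in each of the 12 libraries, by group; symbols give the library number within a group and bars the mean ± SD of 3 libraries. *Ifnar1* and *Il10ra* were high in all 3 CML c-KITlo libraries and low in all 3 CML c-KIThi libraries, whereas group means of *Ifnar2* ran only from 70.3 to 106 CPM.

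In normal LT-HSCs, the comparison of c-KITlo with c-KIThi asks how the receptor mRNAs differ between these subsets in the absence of leukemia. *Ifngr1*, the interferon-γ-binding chain, and *Il10ra*, the IL-10-binding chain, rose in normal c-KITlo LT-HSCs, the former 3.62-fold and the latter from almost no counts. So 2 of 6 chains passed edgeR's quasi-likelihood test (Benjamini-Hochberg adjustment over all tested genes, threshold 0.05), both higher, where 6.5% of all tested genes passed in either direction, 3.1% higher and 3.4% lower. No chain fell. The median log2 fold change of the 6 chains was 1.68, against 0.16 over all tested genes. Of 20 alternative fits, 10 called *Ifngr1* and 10 called *Il10ra*. No chain passed with only the normal libraries in the fit, where 0.21% of the genes tested there did. None passed with limma-voom with sample weights or with a block for replicate number, which called 0.0136% and 1.36% of all tested genes.

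*Ifngr1* stood at 59.1, 57.6 and 69.9 CPM in the normal c-KIThi and at 358, 128 and 189 CPM in the normal c-KITlo libraries. The 3 normal c-KITlo libraries all lay above the 3 normal c-KIThi libraries, with library 1 the highest. The log2 fold change was 1.86 ± 0.41 (SE of the fit, adjusted p = 0.0263). It was 1.37 without normal c-KITlo library 1 (adjusted p = 0.0952). Leaving out normal c-KIThi library 1, 2 or 3 also moved the adjusted p above the threshold (0.0829, 0.10 and 0.0677). So did leaving out CML c-KITlo library 1, 2 or 3 (0.0534, 0.0531 and 0.0513). The log2 fold change over all these fits stayed between 1.37 and 2.16. Of all tested genes 0% passed without normal c-KIThi library 1 or 2, and 0.143% without normal c-KITlo library 1. The share was 1.33% without normal c-KIThi library 3 and 1.29% to 1.98% without any one CML c-KITlo library. The CML libraries enter this comparison through the filter on low counts, the scaling and the spread that all groups share in the fit.

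*Il10ra* had 0, 0 and 6 counts in the normal c-KIThi and 1261, 172 and 93 counts in the normal c-KITlo libraries, which is 0, 0 and 0.765 against 41.8, 8.81 and 5.95 CPM. Groups did not overlap, and normal c-KITlo library 1 alone held most of the group's counts. The fitted log2 fold change was 6.15 ± 1.45 (adjusted p = 0.0319), and the ratio of summed counts relative to library size was 88.3 (95% interval 40.5 to 241, which covers counting error only). Without normal c-KITlo library 1 the log2 fold change was 4.81 (adjusted p = 0.0687). The adjusted p rose above the threshold without normal c-KIThi library 1 (0.0832) or 2 (0.10), where 0% of all tested genes passed. It also did so without CML c-KIThi library 2 (0.0505) or CML c-KITlo library 1 (0.0649), 2 (0.0672) or 3 (0.0604). Fits without 1 of these CML libraries called 1.29% to 3.13% of all tested genes. Without normal c-KIThi library 3, the only one of its group with *Il10ra* counts, that group was at 0 and the fitted value (adjusted p = 0.0406) is no measure of size.

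*Il10rb*, the shared partner chain, stood at 8.67, 17.8 and 13.4 CPM in normal c-KIThi and 25.5, 42.4 and 45.6 CPM in normal c-KITlo libraries. Its groups did not overlap either, with a log2 fold change of 1.51 ± 0.55 that did not pass the test (adjusted p = 0.109). Together, 3 of 6 chains had groups that did not overlap, all higher in c-KITlo, where 23.6% of all tested genes had such groups in either direction, 11% higher and 12.6% lower.

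*Ifnar1* stood at 3.04, 24.4 and 13.8 CPM in normal c-KIThi and 92.2, 77.0 and 6.78 CPM in normal c-KITlo libraries. Library 3 of the normal c-KITlo group lay within the normal c-KIThi range, far below the other two. The log2 fold change was 2.09 ± 0.86 (adjusted p = 0.142). Without that library it was 2.65 (adjusted p = 0.0304), in a fit where 11.6% of all tested genes passed. *Ifngr2* also had a single low library, with 16, 8.85 and 11.7 CPM in normal c-KIThi and 0.232, 38.8 and 27.3 CPM in normal c-KITlo libraries. Here library 1, with 7 counts, was the low one, and the log2 fold change was 0.86 ± 1.13 (adjusted p = 0.696), or 1.46 ± 0.66 without it (adjusted p = 0.215). *Ifnar2* stood at 73.6, 98.8 and 38.6 CPM against 90.6, 43.2 and 104 CPM, with overlapping groups and a log2 fold change of 0.17 ± 0.42 (adjusted p = 0.845).

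Other measures moved along with this comparison. The share of gene counts on short genes was lower in every c-KITlo library, and after offsets for the trend of counts on gene length within each library *Ifngr1* (log2 fold change 1.78, adjusted p = 0.0481) and *Il10ra* (6.39, adjusted p = 0.0335) still passed. Summed B cell markers (10 genes) were at 80.7 to 97.9 CPM in normal c-KIThi and 215 to 414 CPM in normal c-KITlo libraries, most of it *Cd79b*, and 9 of the 10 had a higher mean in c-KITlo, while *Pax5* was at 0 there. Summed monocyte and macrophage markers (12 genes), cells known to express *Ifngr1* and *Il10ra*, were at 580 to 1006 CPM in normal c-KIThi and 443 to 1805 CPM in normal c-KITlo libraries, most of it *Lyz2*. In normal c-KITlo libraries 5 of those 12 markers were at 0, among them *Csf1r* and *Cx3cr1*, both lower without overlap. Of 9 tested markers 1 passed edgeR's test, lower, where 3.4% of all tested genes did. Of the 12 markers, 6 had a higher mean in normal c-KITlo than in normal c-KIThi libraries. Among those, *Ctss* was higher without overlap (1.30 to 9.11 against 15.7 to 46.5 CPM), while *Cd14* (means 1.06 and 9.84 CPM) and *Adgre1* (0.255 and 3.83 CPM) overlapped. Summed T and NK cell markers (10 genes) were at 156 to 207 against 45.6 to 401 CPM, with 6 markers at 0 in normal c-KITlo libraries, *Cd3e* and *Cd3g* included, and *Klrb1c*, the only one with a higher mean there, higher without overlap. Summed neutrophil markers (12 genes) were at 90.1 to 1030 (median 363) against 48.8 to 6045 CPM (median 419). The mean was higher in c-KITlo for 10 of the 12, with 0 of them higher without overlap. The part of these markers in the results was not tested.

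**Figure D2:**
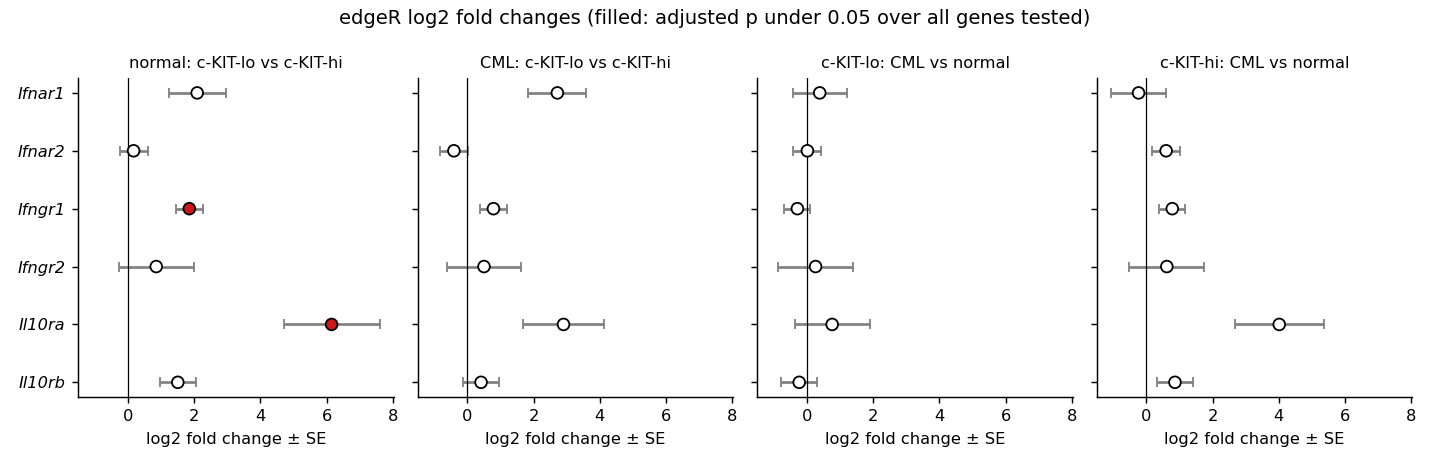
edgeR log2 fold changes of the 6 chains (points, with bars of 1 SE) in the 4 comparisons, from a fit of all 12 libraries; filled points passed an adjusted p of 0.05 over all genes tested. *Ifngr1* (1.86) and *Il10ra* (6.15) are filled in normal c-KITlo versus c-KIThi LT-HSCs, and no other point is.

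The same question was put to CML LT-HSCs. The comparisons share libraries or a common estimate of the spread, so their values stand side by side and are not independent. None of the 6 chains passed the test in CML c-KITlo versus c-KIThi LT-HSCs, where 8.44% of all tested genes did (2.91% higher and 5.53% lower), and 2 of the 6 (*Ifnar1* and *Il10ra*) had an unadjusted p under 0.05, as did 26.9% of all tested genes. Groups did not overlap for 4 of 6 chains, with *Ifnar1*, *Il10ra* and *Ifngr1* higher and *Ifnar2* lower in c-KITlo, where 51.2% of all tested genes had such groups (27.6% higher and 23.6% lower). The median log2 fold change of the chains was 0.65, against 0.05 over all tested genes. With only the CML libraries in the fit, *Ifnar1* (adjusted p = 0.00187) and *Il10ra* (adjusted p = 0.00292) passed, as did 36.1% of the genes tested there. DESeq2 called the same 2 chains and 21.7% of all tested genes, and limma-voom with sample weights called those and *Ifngr1* and 42.8% of all tested genes.

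*Ifnar1*, the TYK2-associated chain of the type I receptor, stood at 9.97, 11.5 and 13.6 CPM in CML c-KIThi and 73.3, 72.9 and 84.3 CPM in CML c-KITlo libraries. Every CML c-KITlo library was several times higher than every CML c-KIThi library, and the spread within each group was small. The log2 fold change was 2.72 ± 0.88 (6.57-fold, adjusted p = 0.0716). Without normal c-KITlo library 3, which enters through the filter, the scaling and the shared spread, the adjusted p was 0.0188 at a log2 fold change of 2.73. In that fit 12.7% of all tested genes passed. Of 20 alternative fits 5 called this chain, among them this fit, the fit of only the CML libraries, DESeq2 and limma-voom. With the length trend taken out, the log2 fold change was 1.86 (adjusted p = 0.266).

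*Il10ra* stood at 4.26, 4.96 and 3.62 CPM in CML c-KIThi and 32.1, 41.4 and 22.6 CPM in CML c-KITlo libraries. These groups were far apart as well, at a log2 fold change of 2.90 ± 1.21 (7.47-fold, adjusted p = 0.145). *Ifngr1* stood at 127, 72.7 and 121 CPM against 177, 167 and 210 CPM, higher in each c-KITlo library, with a log2 fold change of 0.79 ± 0.40 (adjusted p = 0.223). *Ifnar2*, the JAK1-associated chain of the type I receptor, went the other way. It stood at 95.2, 115 and 108 CPM in CML c-KIThi and 91.9, 76.5 and 72.5 CPM in CML c-KITlo libraries, with a log2 fold change of −0.41 ± 0.42 (adjusted p = 0.576). *Ifngr2* (27.9, 5.85 and 22.4 against 28, 22.2 and 29.4 CPM) and *Il10rb* (33.1, 21.7 and 17.8 against 33.8, 32.1 and 30.9 CPM) did not pass the test, at log2 fold changes of 0.50 ± 1.13 and 0.41 ± 0.54. Library 2 of the CML c-KIThi group lay far below all others for *Ifngr2*, whereas the *Il10rb* ranges met only through CML c-KIThi library 1.

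Markers of monocytes and macrophages summed to 655 to 1171 CPM in CML c-KIThi and 438 to 494 CPM in CML c-KITlo libraries, most of it *Lyz2* (means 846 and 371 CPM). The mean was higher in CML c-KITlo libraries for 8 of the 12 markers and lower for 3. *Csf1r* was higher without overlap, and *Lyz2* and *Ms4a6c* were lower without overlap. Of all tested genes 27.6% were higher and 23.6% lower without overlap. Of 9 tested markers 1 passed edgeR's test, higher, where 2.91% of all tested genes did. Markers of B cells (134 to 190 against 66.6 to 95.7 CPM) and of T and NK cells (310 to 1095 against 185 to 235 CPM) summed lower in CML c-KITlo libraries too, most of it *Cd79b* (means 155 and 75.5 CPM) and *Nkg7* (714 and 203 CPM). Other members did not share this direction, as 4 of the 10 B cell markers (*Cd79a* and *Blnk* among them, both at 0 in CML c-KIThi) and 2 of the 10 T and NK cell markers (*Cd4* and *Klrb1c*) had a higher mean in CML c-KITlo libraries. *Ms4a1*, *Pax5*, *Cd3e* and *Cd3g* were at 0 in both groups. Neutrophil markers overlapped, at 950 to 2596 against 254 to 1949 CPM. The shares on genes and on short genes separated the CML c-KIThi from the CML c-KITlo libraries as they did in normal, and beyond the length offsets above their part was not tested.

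CML was next compared with normal at the same c-KIT level. In c-KITlo LT-HSCs none of the 6 chains passed the test, and 0.0954% of all tested genes did (0.0681% higher and 0.0273% lower). No chain had an unadjusted p under 0.05, DESeq2 and limma-voom called 0 chains as well, and the groups overlapped for all 6, where 20.1% of all tested genes had groups that did not. Each chain spread more among the normal than among the CML c-KITlo libraries, as did 93.4% of 13988 genes, whose median coefficient of variation was 82.7% in normal and 20.1% in CML. As a coefficient of variation, *Ifnar1* varied by 77.7% in normal and 8.44% in CML c-KITlo libraries, *Ifngr2* by 89.6% and 14.5%, and *Il10ra* by 106% and 29.3%. The log2 fold changes lay between −0.29 ± 0.39 for *Ifngr1* and 0.76 ± 1.13 for *Il10ra*. Without normal c-KITlo library 1 the value was 2.12 ± 1.10 for *Il10ra* (adjusted p = 0.496) and turned to 0.23 ± 0.40 for *Ifngr1* (adjusted p = 0.885).

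In c-KIThi LT-HSCs none of the 6 chains passed either, and 0.0204% of all tested genes did. *Il10ra* had the largest change of the 6, from 0, 0 and 0.765 CPM in normal to 4.26, 4.96 and 3.62 CPM in CML c-KIThi libraries, or from 6 counts to 128 counts in all. Each CML library lay above each normal library, at a log2 fold change of 4.01 ± 1.34 (adjusted p = 0.676, unadjusted p = 0.0106), and the ratio of summed counts relative to library size was 16.2 (95% interval 7.23 to 44.9, counting error only). DESeq2 called this chain (adjusted p = 0.0258). *Ifngr1* was also higher in each CML c-KIThi library, at a log2 fold change of 0.78 ± 0.40 (adjusted p = 0.774). These were the 2 chains of 6 whose groups did not overlap, both higher, where 14.3% of all tested genes had such groups, 7.97% higher and 6.36% lower. *Ifnar1* (−0.23 ± 0.83), *Ifnar2* (0.60 ± 0.43), *Ifngr2* (0.62 ± 1.13) and *Il10rb* (0.86 ± 0.54) overlapped on the same log2 scale.

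Whether the step from c-KIThi to c-KITlo differs between CML and normal was tested as a difference of log2 fold changes. None of the 6 chains and 0% of all tested genes passed, and no chain had an unadjusted p under 0.05, while DESeq2 called 224 of all tested genes, and DESeq2 and limma-voom called 0 of the chains. The CML step minus the normal step was −3.25 ± 1.69 for *Il10ra* (adjusted p = 0.496), whose normal step starts near 0 counts, and −1.07 ± 0.56 for *Ifngr1* (adjusted p = 0.499). Without normal c-KITlo library 1 these were −1.89 ± 1.43 (adjusted p = 0.634) and −0.56 ± 0.53 (adjusted p = 0.716). It was 0.62 ± 1.17 for *Ifnar1*, −0.58 ± 0.60 for *Ifnar2*, −0.35 ± 1.59 for *Ifngr2* and −1.09 ± 0.76 for *Il10rb*. The passing of *Ifngr1* and *Il10ra* in normal and not in CML LT-HSCs is therefore not shown to be a difference between them.

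A receptor needs both of its chains, and their ratio within a library does not depend on how libraries are scaled. It can still carry the trend of counts on gene length, as *Ifnar1* has 5940 exonic bases and *Ifnar2* 3329. The part of that trend in the ratios was not tested. The log2 ratio of *Ifnar1* to *Ifnar2* counts per kilobase was −4.08, −4.16 and −3.82 in CML c-KIThi and −1.16, −0.90 and −0.62 in CML c-KITlo libraries. The c-KITlo libraries all lay closer to equal levels than the c-KIThi libraries, by 3.13 on the log2 scale between means of −4.02 ± 0.18 and −0.89 ± 0.27 (SD, n = 3, p = 0.1 by an exact permutation test, two-sided, which cannot go lower with 3 libraries a group, and 0.3 after adjustment over 12 ratio comparisons). In normal LT-HSCs the ratio was −5.40, −2.85 and −2.32 in c-KIThi and −0.81, −0.00076 and −4.77 in c-KITlo libraries, which overlapped (exact p = 0.4, adjusted 0.8). The low value is normal c-KITlo library 3, the library with little *Ifnar1*. *Ifnar2* was above *Ifnar1* per kilobase in 11 of 12 libraries and level with it in normal c-KITlo library 2, where the order turned (14.2 against 19.7 CPM per kilobase) when the longest transcript was taken as the length.

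*Il10ra* relative to *Il10rb* was lower than 1 to 1 in all c-KIThi libraries, with a mean log2 ratio of −2.32 ± 0.44 in CML (0.5 counts were added to each count). In normal c-KIThi libraries, 2 of which had 0 *Il10ra* counts, it was at most −4.55 with those libraries set to a floor of 3 counts each. In c-KITlo libraries the mean log2 ratio was −1.37 ± 1.94 in normal and 0.07 ± 0.41 in CML. Groups did not overlap between c-KITlo and c-KIThi in normal (a difference of at least 3.17 at that floor) or in CML (2.40), nor between CML and normal in c-KIThi LT-HSCs (at least 2.21), each at exact p = 0.1 and 0.3 adjusted. *Ifngr1* relative to *Ifngr2* overlapped in all 4 comparisons, with mean log2 ratios of 2.78 to 3.21 in 3 groups and 5.40 ± 4.79 in normal c-KITlo libraries, where library 1 with its 7 *Ifngr2* counts reached 10.9 and the other 2 averaged 2.66.

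**Figure D3:**
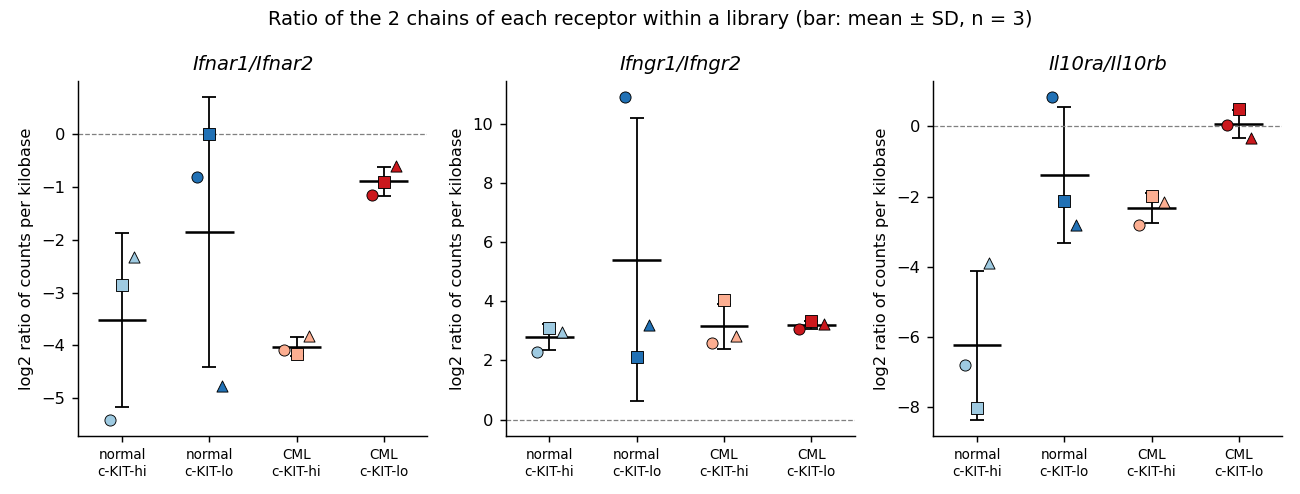
Log2 ratio of the counts per kilobase of both chains of each receptor, within each of the 12 libraries by group; bars give the mean ± SD of 3 libraries, and the dashed line at 0 marks equal levels (0.5 counts were added, which places the 2 normal c-KIThi libraries with 0 *Il10ra* counts). The *Ifnar1*/*Ifnar2* ratio lies near −4.02 in CML c-KIThi and near −0.89 in CML c-KITlo libraries, and a single *Ifngr1*/*Ifngr2* value, 10.9, stands far above the rest.

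In normal c-KITlo versus c-KIThi LT-HSCs the log2 fold changes of the 4 clustered chains along the chromosome were 0.17 for *Ifnar2*, 1.51 for *Il10rb*, 2.09 for *Ifnar1* and 0.86 for *Ifngr2*, none of which passed. In CML they were −0.41, 0.41, 2.72 and 0.50 in that order, none passing either, and differences between these chains were tested only as the ratio of *Ifnar1* to *Ifnar2*. Within 250 kb on either side of the cluster the annotation holds 19 other genes, of which 10 were tested. Of these 1 passed in each of both comparisons of c-KITlo with c-KIThi, where 6.5% of all tested genes did in normal and 8.44% in CML, and 0 passed between CML and normal, where 1 had an unadjusted p under 0.05 at either c-KIT level. The gene that passed was *Son*, an RNA splicing cofactor whose gene lies 81883 bases past the cluster. *Son* fell from 7142 ± 807 CPM in normal c-KIThi to 346 ± 263 CPM in normal c-KITlo LT-HSCs (log2 fold change −4.37 ± 0.76, adjusted p = 0.0162) and from 4632 ± 3079 CPM in CML c-KIThi to 178 ± 17.2 CPM in CML c-KITlo LT-HSCs (−4.70 ± 0.77, adjusted p = 0.0151). With 1 library left out its adjusted p reached 0.0637 in normal (above the threshold without normal c-KIThi library 1 or 2 or normal c-KITlo library 1) and 0.101 in CML (without CML c-KIThi library 2 or any CML c-KITlo library), and over all alternatives its log2 fold change lay between −5.17 and −3.28 in normal and between −5.15 and −4.33 in CML. The nearest tested genes were *A930006K02Rik*, a noncoding transcript within the cluster (log2 fold change −0.55 ± 1.53 in normal and −2.78 ± 1.63 in CML), and *Tmem50b* (1.14 ± 0.56 and 0.86 ± 0.56), and neither passed.

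**Figure D4:**
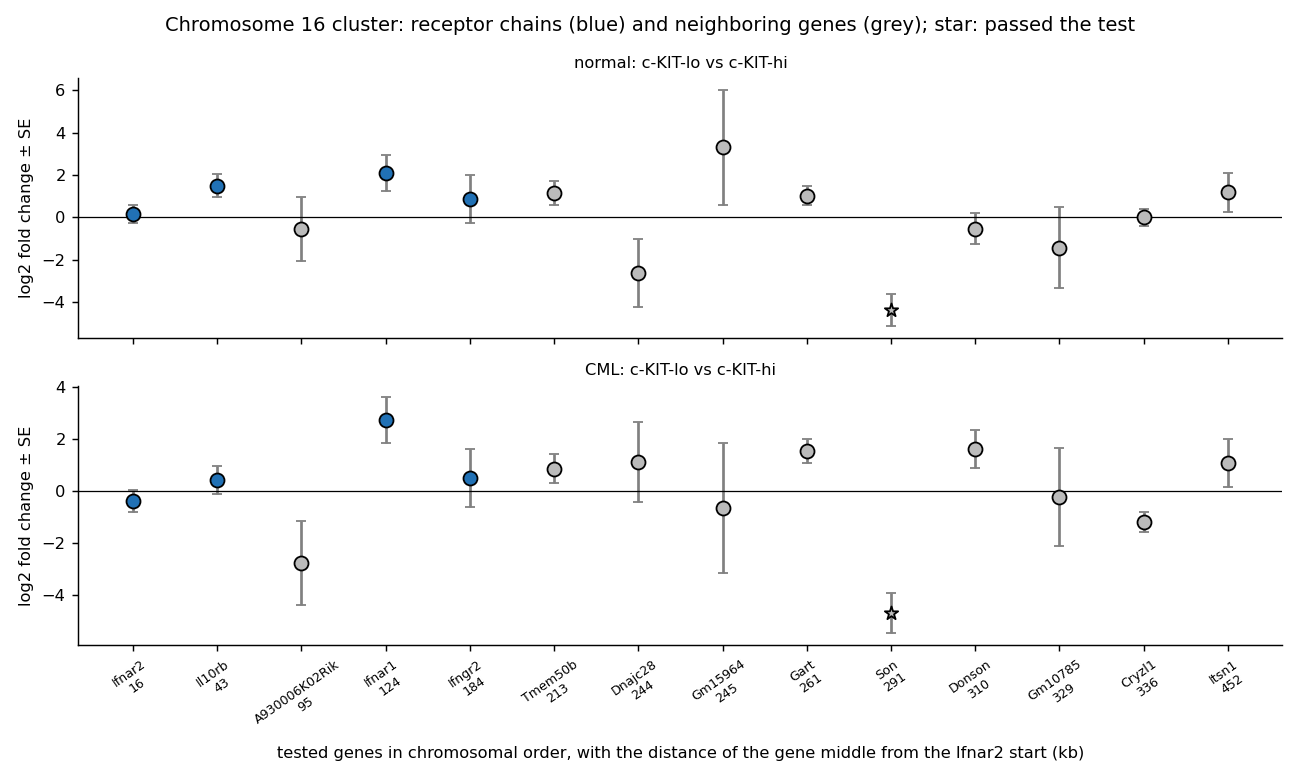
edgeR log2 fold changes (± 1 SE) of c-KITlo versus c-KIThi LT-HSCs for the 4 chromosome 16 chains (blue) and 10 tested neighboring genes (grey), evenly spaced in chromosomal order with the distance of each gene's middle from the *Ifnar2* start in kb below. Stars passed the test, which only *Son* did, at −4.37 in normal and −4.70 in CML LT-HSCs.

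Ligands of these receptors were almost absent from the libraries. Of 27 interferon and IL-10 family genes on the list, 11 had 0 counts in all 12 libraries, *Ifng* among them, and none passed the filter. The most counted were *Ifnz* with 39 and *Il10* with 34 counts over all libraries, and *Ifnb1* had 3. These are counts in LT-HSCs and say nothing about other cells of the marrow.

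Downstream of the receptors, 1 of 7 kinases, STATs and partners rose in each comparison of c-KITlo with c-KIThi, and none fell. Among all tested genes 3.1% rose in normal and 2.91% in CML, so 1 of 7 is not read as a result about this list. *Irf9*, which joins STAT proteins in the type I complex, rose in normal c-KITlo LT-HSCs from 54.9 ± 26.7 to 197 ± 87.9 CPM (3.6-fold, adjusted p = 0.0432). *Stat3*, the main STAT of IL-10, rose in CML c-KITlo LT-HSCs from 73.5 ± 25.0 to 361 ± 44.9 CPM (4.92-fold, adjusted p = 0.0340), with no overlap between groups. *Tyk2*, the kinase on IFNAR1 and IL10RB, had a log2 fold change of 2.56 ± 0.86 in CML (adjusted p = 0.0800). The median over the 7 genes was 1.21 in normal and 0.88 in CML. Between CML and normal 0 of 7 passed in c-KITlo (1 with an unadjusted p under 0.05, where 13.6% of all genes had one) and 0 in c-KIThi LT-HSCs (0, where 6.66% had one), and DESeq2 and limma-voom called 0 there.

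Of 10 inhibitors of these receptors, 3 rose in normal and 1 in CML c-KITlo LT-HSCs, and none fell. Over all tested genes, 3.1% rose in normal and 2.91% in CML. *Ptpn6*, the phosphatase SHP-1, rose in normal from 138 ± 25.3 to 531 ± 117 CPM (3.86-fold, adjusted p = 0.0180). *Btrc* and *Prkd2*, both known from human cells for their part in degrading IFNAR1, rose 5.27-fold (adjusted p = 0.0323) and 5.11-fold (adjusted p = 0.0420) in normal. *Socs3*, which restrains STAT3 signaling and is itself a STAT3 target, rose in CML from 21.2 ± 8.36 to 232 ± 85.2 CPM (10.9-fold, adjusted p = 0.0490). The median over the 10 genes was 1.45 in normal and 0.29 in CML on the log2 scale. Between CML and normal 0 of 10 passed, with 3 in c-KITlo and 2 in c-KIThi LT-HSCs at an unadjusted p under 0.05, where DESeq2 called 1 in each and limma-voom 0. Over all tested genes, 13.6% and 6.66% had such a p, and DESeq2 called 3.39% and 1.29%.

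Of 22 tested genes known to respond to interferon-γ, 6 rose in normal c-KITlo LT-HSCs and none fell, where 3.1% of all tested genes rose and 3.4% fell. *Irf1*, a transcription factor induced by interferon-γ, rose from 26.5 ± 11.1 to 173 ± 33.8 CPM (6.52-fold, adjusted p = 0.0146). *Gbp2* and *Igtp*, interferon-inducible GTPases, rose 5.55-fold (adjusted p = 0.0206) and 5.18-fold (adjusted p = 0.0220), and *Irgm2*, *Tgtp2* and *Gbp3*, GTPases of the same families, rose as well. Their median log2 fold change was 1.84, against 0.16 over all tested genes. In CML c-KITlo versus c-KIThi LT-HSCs 0 of 22 passed edgeR's test (6 with an unadjusted p under 0.05, where 26.9% of all genes had one). DESeq2 called 4 higher and 2 lower, where it called 21.7% of all genes, and limma-voom 5 higher and 2 lower, where it called 42.8%. The median was 0.67. The smallest p-values there belonged to *Psmb9*, an immunoproteasome subunit (log2 fold change −1.83 ± 0.53, adjusted p = 0.0512), *Tap1*, a peptide transporter subunit (1.26 ± 0.38, adjusted p = 0.0588), and *Gbp4* (4.03 ± 1.31, adjusted p = 0.0731). Tested as a difference between the CML and the normal step, 0 of 22 passed. An unadjusted p under 0.05 was seen there for 9 of 22, where 11.3% of all tested genes had one. The passing of 6 genes in normal and 0 in CML is therefore not shown to be a difference between them. Between CML and normal c-KITlo LT-HSCs 1 of the list passed, where 0.0954% of all tested genes did. *Tgtp2* fell from 306 ± 177 to 26.8 ± 5.65 CPM (log2 fold change −3.52 ± 0.50, adjusted p = 0.0343). *Tgtp1* and *Tgtp2* are near-identical copies between which reads may be split or set aside, so this level is uncertain. *Igtp* (−2.38 ± 0.47, adjusted p = 0.101) and *Ifi47* (−1.73 ± 0.41, adjusted p = 0.172) did not pass, and DESeq2 called 6 of the list lower, where it called 3.39% of all genes. The median of the list there was −1.22, with 10 of 22 genes lower without overlap and 0 higher, where 7.84% of all tested genes were lower without overlap. The *Ifngr1* and *Ifngr2* values of the same libraries overlapped.

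Of 29 genes known as type I interferon targets, 3 rose in normal c-KITlo LT-HSCs, where 3.1% of all tested genes did. None passed edgeR's test in CML, where 11 had an unadjusted p under 0.05, as did 26.9% of all tested genes. DESeq2 called 3 higher and 3 lower in CML and limma-voom 7 higher and 5 lower, against the same shares of 21.7% and 42.8% of all genes. *Oasl2*, of the oligoadenylate synthetase family, rose from 35.6 ± 24.8 to 192 ± 74.4 CPM (5.40-fold, adjusted p = 0.0256), *Cmpk2* 8.90-fold (adjusted p = 0.0373) and *Ifi44* 7.89-fold (adjusted p = 0.0447). The median log2 fold change was 1.62 in normal and 0.51 in CML. Tested as a difference between these steps, 0 of 29 passed, and 3 had an unadjusted p under 0.05. Over all tested genes 11.3% had such a p, so a difference between normal and CML is not shown. In CML c-KITlo versus c-KIThi LT-HSCs *Oasl2* was at 1.73 ± 0.51 (adjusted p = 0.0554), *Ifi44* at 2.45 ± 0.77 (adjusted p = 0.0670) and *Herc6*, an ISG15 ligase in mouse, at −3.08 ± 0.97 (adjusted p = 0.0662). In CML versus normal c-KITlo LT-HSCs 0 of 29 passed, with 8 at an unadjusted p under 0.05 (13.6% of all genes), where DESeq2 called 3 lower (3.39% of all genes in either direction) and limma-voom 0, and the median was −1.18. *Rtp4* (−2.75 ± 0.51, adjusted p = 0.0986), *Xaf1* (−2.46 ± 0.70, adjusted p = 0.219) and *Isg15*, a ubiquitin-like modifier (−2.51 ± 0.73, adjusted p = 0.221), had the smallest p-values there. Groups did not overlap for 10 of the 29 genes, all lower in CML, where 7.84% of all tested genes were lower without overlap.

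Of 9 tested IL-10-responsive genes, 2 rose in normal and 3 in CML c-KITlo LT-HSCs, where 3.1% and 2.91% of all tested genes rose. In normal these were *Tnip3*, a brake on NF-κB (3.31-fold, adjusted p = 0.0314), and *Zfp36*, the mRNA decay factor tristetraprolin (4.29-fold, adjusted p = 0.0358). In CML they were *Il4ra*, the IL-4 receptor α chain (5.03-fold, adjusted p = 0.0296), *Socs3*, and *Sbno2*, a corepressor induced by IL-10 in macrophages (17.9-fold, adjusted p = 0.0321). *Sbno2* stood at 11.3 ± 4.42 CPM in CML c-KIThi and 201 ± 46.3 CPM in CML c-KITlo LT-HSCs. *Zfp36* rose in CML versus normal c-KIThi LT-HSCs from 42.4 ± 20.7 to 746 ± 332 CPM (17.6-fold, adjusted p = 0.0324). Many cytokines other than IL-10 are known to induce these genes.

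Many of these list calls changed when 1 library was left out, and so did calls over all genes. In normal c-KITlo versus c-KIThi LT-HSCs, 0% of all tested genes passed without normal c-KIThi library 1 or 2. The share was 0.143% without normal c-KITlo library 1 and 1.33% without normal c-KIThi library 3. It was 1.29% to 1.98% without any one CML c-KITlo library, and at most 11.6%, without normal c-KITlo library 3. In such fits 0 to 7 interferon-γ-responsive genes passed higher in normal c-KITlo versus c-KIThi LT-HSCs in place of 6, with 0 without normal c-KIThi library 1 or 2 or normal c-KITlo library 1, 2 without normal c-KIThi library 3, and 3 without any one CML c-KITlo library. Type I targets ran from 0 to 4 in place of 3, with 0 without the same 3 normal libraries or CML c-KITlo library 1 or 2. *Irf1*, *Gbp2* and *Ptpn6* each kept their call in 9 of 12 such fits and lost it in those without normal c-KIThi library 1 or 2 or normal c-KITlo library 1. The highest adjusted p was 0.0584 for *Irf1* and 0.0766 for both *Gbp2* and *Ptpn6*. The other named calls in normal held in 1 (*Ifi44* and *Prkd2*) to 8 (*Igtp*) of the 12 fits, and *Irf9* only without normal c-KITlo library 2 or 3. In CML c-KITlo versus c-KIThi LT-HSCs *Stat3*, *Socs3*, *Il4ra* and *Sbno2* each lost their call without any one of the 6 CML libraries. The adjusted p reached 0.156, 0.170, 0.139 and 0.146 in that order. Of all tested genes there, 0% passed without CML c-KIThi library 2 or CML c-KITlo library 1 or 2. The share was 0.0125% without CML c-KITlo library 3, and 4.29% and 3.55% without CML c-KIThi libraries 1 and 3. Leaving out normal c-KIThi library 2 or 3 also ended the call of *Stat3*, library 3 that of *Sbno2*, and any of the 3 that of *Socs3*. *Tgtp2* in CML versus normal c-KITlo LT-HSCs kept its call in 3 of 12 fits (adjusted p 0.00657 to 0.237), and *Zfp36* in c-KIThi LT-HSCs in 4 of 12 (0.0245 to 0.383). No named call changed direction. With offsets for the length trend the 4 calls named in CML c-KITlo versus c-KIThi LT-HSCs ended, at log2 fold changes of 3.51 in place of 4.16 for *Sbno2*, 3.28 in place of 3.45 for *Socs3*, 1.56 in place of 2.30 for *Stat3* and 1.45 in place of 2.33 for *Il4ra*. In normal they ended the calls of *Tnip3* (adjusted p = 0.0518), *Tgtp2* (0.0606), *Gbp3* (0.0666) and *Irf9* (0.0799), each still higher in c-KITlo. In normal, limma-voom and the fit of only the 2 groups compared called 0 genes of the interferon-γ, type I and IL-10 lists, where they called 0.0136% and 0.21% of all genes, and DESeq2 called 10, 7 and 5, all higher, where it called 18.4% of all genes.

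Likeness of pattern was measured as the root mean square difference of centered log2(CPM + 1) over the 12 libraries, among genes with a mean of 5 CPM or more, as a description. The closest to *Ifngr1* were *Tmem106c* (0.19), *Jmjd8* (0.20) and *Mcrs1* (0.22), and the closest to *Ifnar1* were *Srebf1* (0.33), *Rnf31* (0.33) and *Dgka* (0.36). *Il10ra* had no close match, with *Flcn* at 0.74, *Pld2* at 0.74 and *Pim2* at 0.78. *Ifnar2* was followed by *Stx4a* (0.26), *Acadl* (0.26) and *Atf4* (0.30), *Ifngr2* by *Slc39a3* (0.37), *Blcap* (0.37) and *Ero1l* (0.44), and *Il10rb* by *Rasa4* (0.22), *Cyhr1* (0.23) and *Farsa* (0.25). Between chains the difference ran from 0.59 (*Ifngr1* and *Il10rb*) to 2.37 (*Ifngr2* and *Il10ra*), with *Ifnar1* at 1.68 from *Ifnar2* and *Il10ra* at 1.51 from *Il10rb*.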

How the data were processed

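RNA was extracted from sorted LT-HSCs, copied with a SMARTer v4 kit (polyadenylated RNA), and sequenced after Nextera XT library preparation, which does not mark strand. The authors aligned reads with STAR 2.5.3a to GRCm38 (Gencode M11) and deposited whole-number counts per gene from HTSeq 0.9.1, without normalization; their notes list DESeq2 1.22.2 and DRAGEN for their own work. The 5 HTSeq classes of unassigned reads were left out. GENCODE M21 supplied gene names, exonic lengths and positions (same assembly; 48435 identifiers matched and 360 did not). Genes were kept with filterByExpr, scaled by TMM and fitted over all 12 libraries with edgeR 4.0.16 (R 4.3.3) by its quasi-likelihood F test, with Benjamini-Hochberg adjustment over all tested genes and a threshold of 0.05; the script was tested on simulated data. CPM used TMM-scaled library sizes. Chain ratios were compared by exact two-sided permutation tests. Alternatives were DESeq2 1.42.0, limma-voom (limma 3.58.1), median-of-ratios scaling, no filter, only the 2 groups compared, thinned libraries, length-trend offsets, a replicate block, and each library left out. The members and gene lists were chosen with earlier results of these data known. Named genes were the 6 chains, up to 3 members per list and comparison with the smallest p, and the 3 most similar protein-coding genes per chain; *Son*, *Tmem50b*, *A930006K02Rik*, *Gm21970*, *Irgm2*, *Gbp3* and the ligands were named after their values were seen.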

Additional observations from a re-analysis of the deposited data

How the results depend on the processing

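In normal c-KITlo versus c-KIThi LT-HSCs 2 chains passed. With a replicate block, only the 2 groups compared or limma-voom 0 passed, and 0 to 3 passed with 1 library left out. Fits with 1 library left out called 0% to 11.6% of all tested genes in this comparison. In CML c-KITlo versus c-KIThi LT-HSCs 0 passed. The count was 1 without the filter, 2 with only the 2 groups compared, 3 with limma-voom and 2 with DESeq2. With 1 library left out 0 to 1 chains passed, as did 0% to 13% of all tested genes. In CML versus normal c-KIThi LT-HSCs 1 passed with DESeq2 in place of 0. The other alternatives left these counts within 1.5 times. Deviations from the group means correlated at −0.17 to 0.11 between libraries of the same replicate number. Libraries of different numbers were not correlated for comparison, so whether the numbers pair the libraries is not settled. The block left *Ifngr1* at 1.76 (adjusted p = 0.0548) and *Il10ra* at 6.07 (adjusted p = 0.0865) in normal. Median-of-ratios scaling moved the median of all genes in normal from 0.16 to 0.02. Among all tested genes 954 were called in normal and 1238 in CML; the counts were 26 and 4807 with only the 2 groups compared, 2 and 6282 with limma-voom, 2700 and 3183 with DESeq2, and 199 and 430 under the block. Under the block 2 interferon-γ-responsive, 0 type I and 0 IL-10-responsive genes passed in normal in place of 6, 3 and 2. The causes were not tested.

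Of 594 log2 fold changes of the chains under alternatives, 23 changed sign, none of them a call. *Ifnar2* in normal c-KITlo versus c-KIThi LT-HSCs was −0.0085 with median-of-ratios scaling, −0.0027 with length offsets, −0.0085 with DESeq2, and −0.11 to 0.52 with 1 library left out. *Ifngr2* was −0.60 there and −0.047 in CML versus normal c-KIThi LT-HSCs with limma-voom, and 1.91 in the difference between disease states. Length offsets gave −0.049 for *Ifngr2* and −0.17 for *Il10rb* in CML c-KITlo versus c-KIThi, −0.80 for *Ifnar1*, −0.38 for *Ifnar2* and −0.021 for *Ifngr2* in CML versus normal c-KITlo, and −0.77 for *Ifnar1* in the difference. With 1 library left out, CML versus normal c-KITlo ranged from −0.57 to 0.23 for *Ifngr1*, −0.31 to 0.96 for *Ifngr2*, −0.28 to 0.26 for *Ifnar2* and −0.14 to 0.88 for *Ifnar1*, CML versus normal c-KIThi from −0.70 to 0.47 for *Ifnar1*, and the difference from −0.085 to 1.10 for *Ifnar1* and −0.94 to 0.33 for *Ifngr2*. Levels per kilobase by longest transcript were higher for *Ifnar1*, *Ifngr1* and *Il10rb*.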

Other observations

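Some of the other class II receptor chains were scarcely counted in these LT-HSCs. Of 6 genes on that list, *Ifnlr1*, the ligand-binding chain for type III interferons that pairs with IL10RB, had 4 counts over all 12 libraries, *Il22ra1*, the IL-22-binding chain, had 21, and *F3*, tissue factor, had 3, so none of these was tested. *Il20ra*, *Il20rb* and *Il22ra2* were tested, and 0 of 3 passed edgeR's test in any of the 4 comparisons. In normal c-KITlo versus c-KIThi LT-HSCs 1 had an unadjusted p under 0.05, as did 26.6% of all tested genes. In CML versus normal c-KITlo LT-HSCs 1 had such a p, as did 13.6% of all tested genes. DESeq2 called 1 lower in normal c-KITlo versus c-KIThi LT-HSCs, where it called 18.4% of all tested genes. The limma-voom fit called 0 in all 4 comparisons. *Il10rb* had 60 to 866 counts per library.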
